A study of Mus musculus with 65 samples.

Results

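The ribbon synapse and vesicle exocytosis genes described here are 36 genes of the presynaptic side of the hair cell synapse, taken as a list of gene symbols from the 55292 rows of the count table. All 36 symbols were found in the table. The measurements are read counts per gene in 65 single cochlear cells of postnatal day 10 mice, which the titles call outer hair cells although the protocol speaks of picked IHCs and iOHCs. Of 5 inner hair cell markers only Slc17a8 reached 5 CPM in either group. The 17 CKO cells came from Atoh1Cre/+; Casz1flox/flox; Slc26a5FlpO/+; Rosa26FSF-H2BEGFP/+ mice, in which Cre under control of Atoh1, a gene of the hair cell lineage, acts on the floxed Casz1 alleles. The 48 WT cells came from Slc26a5FlpO/+; Rosa26FSF-H2BEGFP/+ mice, so both groups carried the FlpO driver and the nuclear GFP reporter by which cells were picked, and the groups differ in Cre as well as in Casz1. The study asks what loss of this zinc finger transcription factor does to hair cells. No animal or litter is named, so each genotype counts as 1 sample. Differences are therefore given without p-values, and no variation between animals could be estimated.

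Hair cells signal sound to the auditory nerve through ribbon synapses. At these sites an electron-dense ribbon, built mainly of the protein RIBEYE, tethers glutamate-filled vesicles beside calcium channels of the Cav1.3 type, and calcium entry drives their fusion. Fusion in general uses SNARE proteins on the vesicle and on the plasma membrane, which afterwards are pulled apart by NSF and its adaptors. Outer hair cells have fewer ribbon synapses than inner hair cells and serve mainly as amplifiers, yet they form functional ribbons. Inner hair cells are known to release transmitter with otoferlin in place of the synaptotagmins, complexins and Munc13 proteins that neurons use.

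The CKO cells held 8239671 to 15320549 counts each and the WT cells 7458126 to 17107710. Levels are given as CPM, counts per 1000000 counts, either per cell or summed over the cells of a group. A log2 ratio is that of summed CPM, CKO over WT, and its 95% interval, like every interval on CPM, covers counting error of reads only. The reads carry no molecular identifiers and PCR copies count repeatedly, so these intervals are too narrow for the error of counting molecules. All 8 outer hair cell markers were present in both groups at 28.4 CPM or more. The summed level of the 15 neuron markers ran from 104.5 to 1082 CPM per cell in CKO cells and from 91.3 to 1020.5 CPM in WT cells; 7 of the 15 reached 5 CPM in the higher group (4 higher and 3 lower in CKO cells), led by Map2 at 317 CPM in CKO cells and 243 CPM in WT cells, while Gap43 and Thy1 had no count in any cell and Prph 1 in all. The part of these transcripts in the results was not tested. Casz1 itself stood at 46.2 CPM in CKO cells and 53.3 CPM in WT cells (log2 ratio -0.21), a whole-gene count that does not check deletion of floxed exons, so CKO and WT are the labels' terms. Xist without Y-linked transcripts was found in 15 of 17 CKO and 9 of 48 WT cells, and WT cells 1 to 11, 12 to 45 and 46 to 48 formed runs that differed in mt-Co2 (33.5 to 83.6, 229 to 644 and 100.1 to 111 CPM). The CKO cells held 94.8 to 283 CPM of mt-Co2, above all of WT cells 1 to 11. The part of sex and of these runs in the differences was not tested beyond the values given for subsets.

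Outer hair cells of both genotypes transcribed a ribbon synapse set dominated by a few genes. Per cell, a median of 19 members (range 13 to 24) had a count in CKO cells and 18 (13 to 24) in WT cells. At least 10 counts were reached by a median of 17 members (12 to 22) in CKO cells and 15 (9 to 21) in WT cells. Of the 36 members, 20 had a count in at least 50% of the CKO cells and 17 in at least 50% of the WT cells, or 19 and 16 after each cell was thinned to 7000000 counts. Together the members took 2073 to 4256 CPM per cell in CKO cells (median 2907) and 1479 to 4396 CPM in WT cells (median 3027). The groups overlapped over nearly the whole range.

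To compare genes of different length, summed CPM was divided by the merged exon length in kilobases. On this scale Cabp2, which encodes a calcium-binding regulator of Cav1.3 channels, stood far above all others, with a level of 622 CPM per kilobase in CKO cells and 558 in WT cells. Napa, encoding the NSF adaptor alpha-SNAP, followed at 104 and 106, and Snap91, encoding the clathrin assembly protein AP180, at 50.4 and 52.2. Snap25 (25.2 and 27.4), Nsf (22.9 and 21.8), Cacna1d (20.3 and 17.1), Vamp2 (13.9 and 19.8), Ctbp2 (13.2 and 14.2) and Vamp4 (10.7 and 12.0 CPM per kilobase in CKO and WT cells) came next. At the other end, Rims1 had no count in any of the 65 cells.

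**Figure D1:**
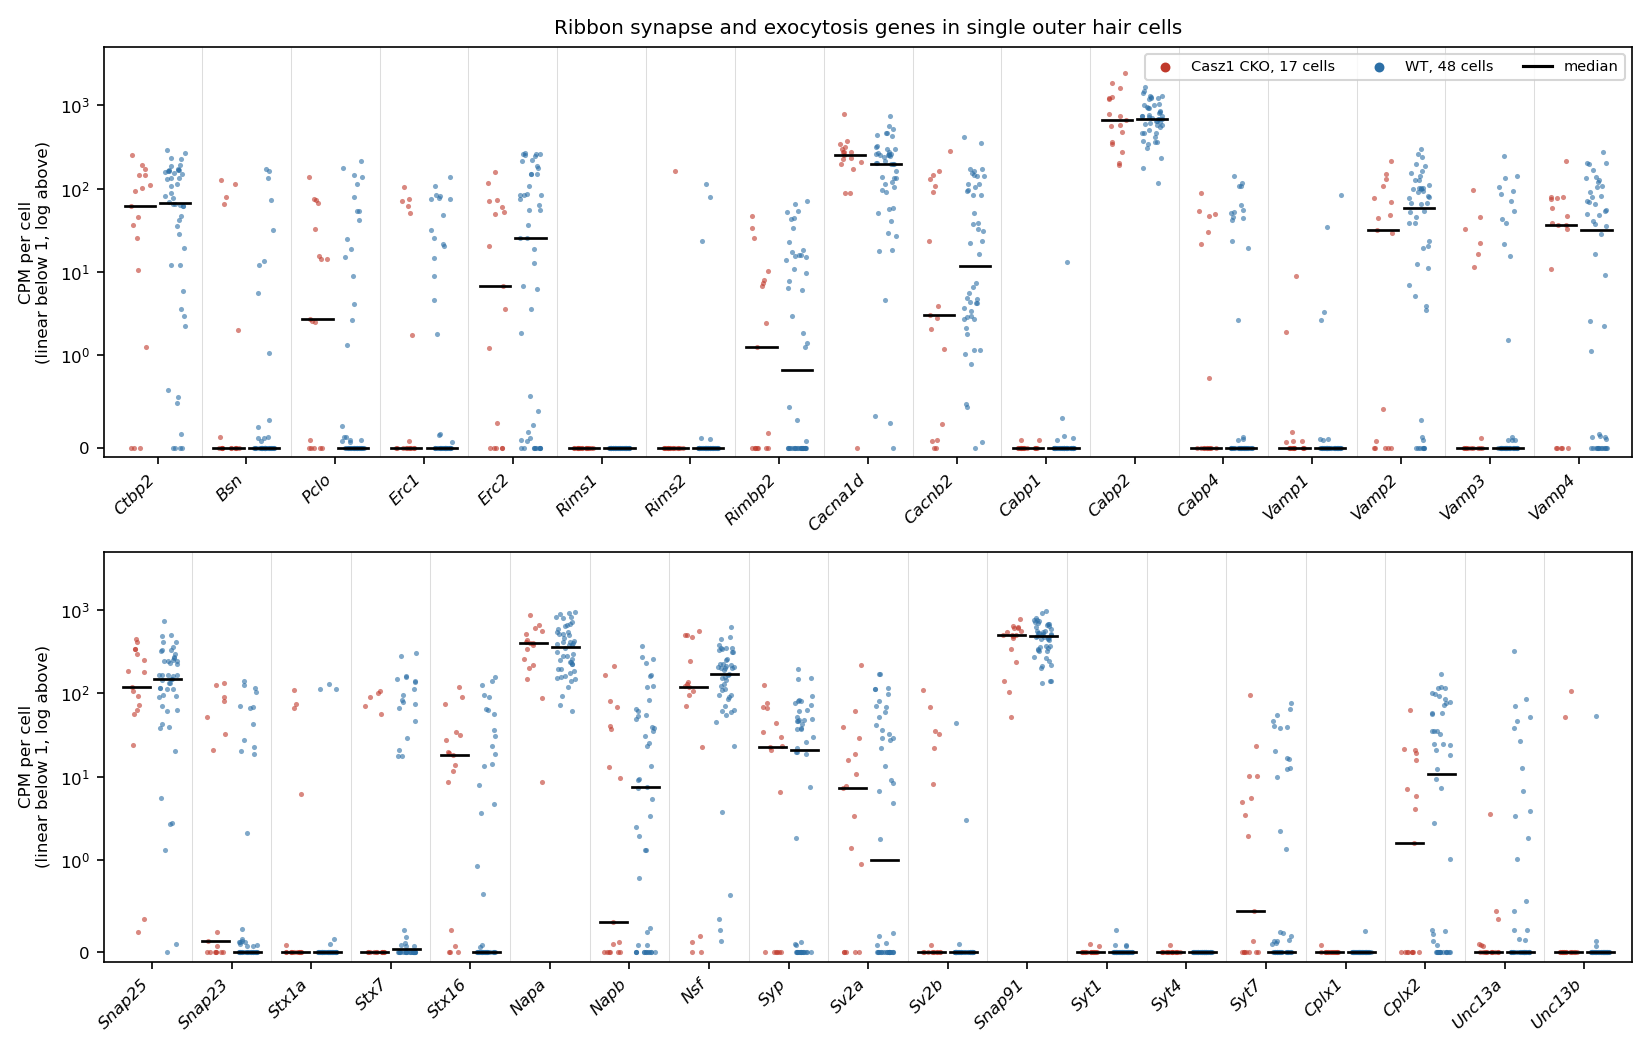
Level of each of the 36 genes in every cell, as CPM on an axis that is linear below 1 and logarithmic above, with the 17 CKO cells left of the 48 WT cells and a bar at each median. Cabp2, Napa and Snap91 were counted in every cell, most other genes were at 0 in part of the cells of both groups, and the groups overlap for every gene that has counts in both.

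Sequences before annotated starts are shown for the gene at the top of this order, the gene at its bottom and the gene of the ribbon itself, because Ctbp2 has a start site of its own for RIBEYE. In the GENCODE annotation the longest Ctbp2 protein, of 988 residues, belongs to a transcript that starts at position 133015248 of chromosome 7, while the 445-residue CtBP2 corepressor starts upstream at 133123367. The counts are per gene, so RIBEYE and CtBP2 transcripts were not separated. The windows are the 250 bases before a RefSeq start on GRCm38.p6 (mm10), 5′ to 3′ on the gene's strand, with CG dinucleotides in capitals. They are chr7:133015248-133015497 on the minus strand for Ctbp2, chr19:4082238-4082487 and chr19:4083269-4083518 on the plus strand for Cabp2, and chr1:22806159-22806408 on the minus strand for Rims1. A further Ctbp2 window, chr7:133081861-133082110 on the minus strand with 2 CG dinucleotides, is not shown.
Ctbp2, RIBEYE start: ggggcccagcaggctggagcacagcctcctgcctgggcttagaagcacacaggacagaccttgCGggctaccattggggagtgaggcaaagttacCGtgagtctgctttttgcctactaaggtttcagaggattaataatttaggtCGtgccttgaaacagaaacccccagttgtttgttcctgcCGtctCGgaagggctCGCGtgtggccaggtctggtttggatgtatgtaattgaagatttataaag
Cabp2, upstream start: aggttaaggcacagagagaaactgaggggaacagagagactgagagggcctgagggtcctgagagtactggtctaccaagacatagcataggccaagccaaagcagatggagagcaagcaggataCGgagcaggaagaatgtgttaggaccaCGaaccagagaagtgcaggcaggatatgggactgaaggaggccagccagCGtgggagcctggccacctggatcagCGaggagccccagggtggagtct
Cabp2, downstream start: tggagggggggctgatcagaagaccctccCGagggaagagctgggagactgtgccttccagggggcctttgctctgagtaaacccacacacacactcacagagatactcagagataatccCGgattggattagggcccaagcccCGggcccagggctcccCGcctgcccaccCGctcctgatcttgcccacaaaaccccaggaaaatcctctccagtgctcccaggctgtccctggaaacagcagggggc
Rims1: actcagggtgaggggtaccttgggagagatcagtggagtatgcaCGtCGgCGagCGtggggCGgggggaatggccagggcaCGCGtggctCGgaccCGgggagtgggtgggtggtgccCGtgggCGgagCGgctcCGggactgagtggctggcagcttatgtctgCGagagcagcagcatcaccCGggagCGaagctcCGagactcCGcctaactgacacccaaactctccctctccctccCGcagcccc
The windows hold 7, 4, 5 and 19 CG dinucleotides in that order, against a median of 6 (quartiles 2 and 16) over all 32851 RefSeq windows of the same length, of which 92.1% hold at least 1. Windows were found for 29 of the 36 members, 41 in all, with a median of 11. These counts are a description of the sequence only.

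Ribbon and active zone scaffold genes had no common direction between the genotypes. Ctbp2 (chromosome 7, 132987563 to 133124354, minus strand, GRCm38) ran from 0 to 251 CPM per cell in CKO cells with a median of 61.5, and from 0 to 289 CPM in WT cells with a median of 66.9. Summed, it stood at 82.0 CPM (95% interval 80.7 to 83.2) in CKO cells and 88.1 CPM (87.3 to 88.9) in WT cells, a log2 ratio of -0.10. A count was found in 14 of 17 CKO cells and in 44 of 48 WT cells, and the groups overlapped fully. The direction turned between subsets, since with the Xist pattern alone Ctbp2 stood at 84.2 CPM in CKO cells and 65.9 CPM in WT cells.

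Bassoon and Piccolo, giant proteins that anchor the ribbon, were sparsely sampled. Bsn was found in 6 of 17 CKO cells and 15 of 48 WT cells, at summed levels of 21.8 and 12.6 CPM, and its highest cells reached 126 CPM in CKO cells and 169 CPM in WT cells. Pclo was found in 12 of 17 CKO cells and 23 of 48 WT cells, at 23.2 and 19.5 CPM. Against WT cells 46 to 48, which held 64.95 CPM, the ratio of Pclo turned to -1.49.

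Erc2, encoding CAST, an active zone protein that binds Bassoon and RIM, was the most abundant of the scaffold genes after Ctbp2. Its cells ran from 0 to 158 CPM with a median of 6.68 in CKO cells, and from 0 to 265 CPM with a median of 25.4 in WT cells. The summed level was 38.8 CPM in CKO cells and 72.3 CPM in WT cells, a log2 ratio of -0.90 (-0.93 to -0.86), and when each CKO cell was set against each WT cell (816 pairings), WT was higher in 59.7%. The ratio was -1.65 for the Xist-pattern cells of both genotypes and -0.67, -1.02 and -0.43 against the 3 runs of WT cells in turn, so Erc2 was lower in CKO cells in each subset. Erc1, its more widely expressed paralogue, stood at 21.1 CPM in CKO cells and 17.9 CPM in WT cells. CAST transcripts made up 75.5% of the pair per kilobase in CKO cells and 87.1% in WT cells, and Erc2 exceeded Erc1 in 9 of 13 CKO and 35 of 43 WT cells with a count of either.

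Of the RIM genes, whose proteins link vesicles to calcium channels, both members were sparse or without counts. Rims1 (chromosome 1, 22286251 to 22805994, minus strand) had 0 counts among 199812603 in CKO cells and among 547934202 in WT cells; 3 counts would be 0.0150 and 0.00548 CPM. A count in 0 of 17 CKO cells allows a share of up to 19.5%, and 0 of 48 WT cells up to 7.40% (exact binomial interval, counting error only), which limits cells with a count among cells like those sampled and not cells expressing the gene. Rims2 (chromosome 15, 39198261 to 39684372) was found in 1 of 17 CKO cells, at 161 CPM in that cell, and in 5 of 48 WT cells, the highest at 114 CPM. Its log2 ratio of 1.06 therefore rests on CKO cell 8, without which the CKO cells had no count; it was 1.69 without WT cell 37 and 2.21 without WT cell 44. Rims3, a further RIM family gene outside the 36 that is named here after its values were seen, was found in 11 of 17 CKO and 35 of 48 WT cells, at 59.3 and 51.8 CPM. Rimbp2, the RIM-binding protein that connects RIM to the channel, was found in 10 of 17 CKO and 27 of 48 WT cells, at 8.71 and 11.7 CPM.

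**Figure D2:**
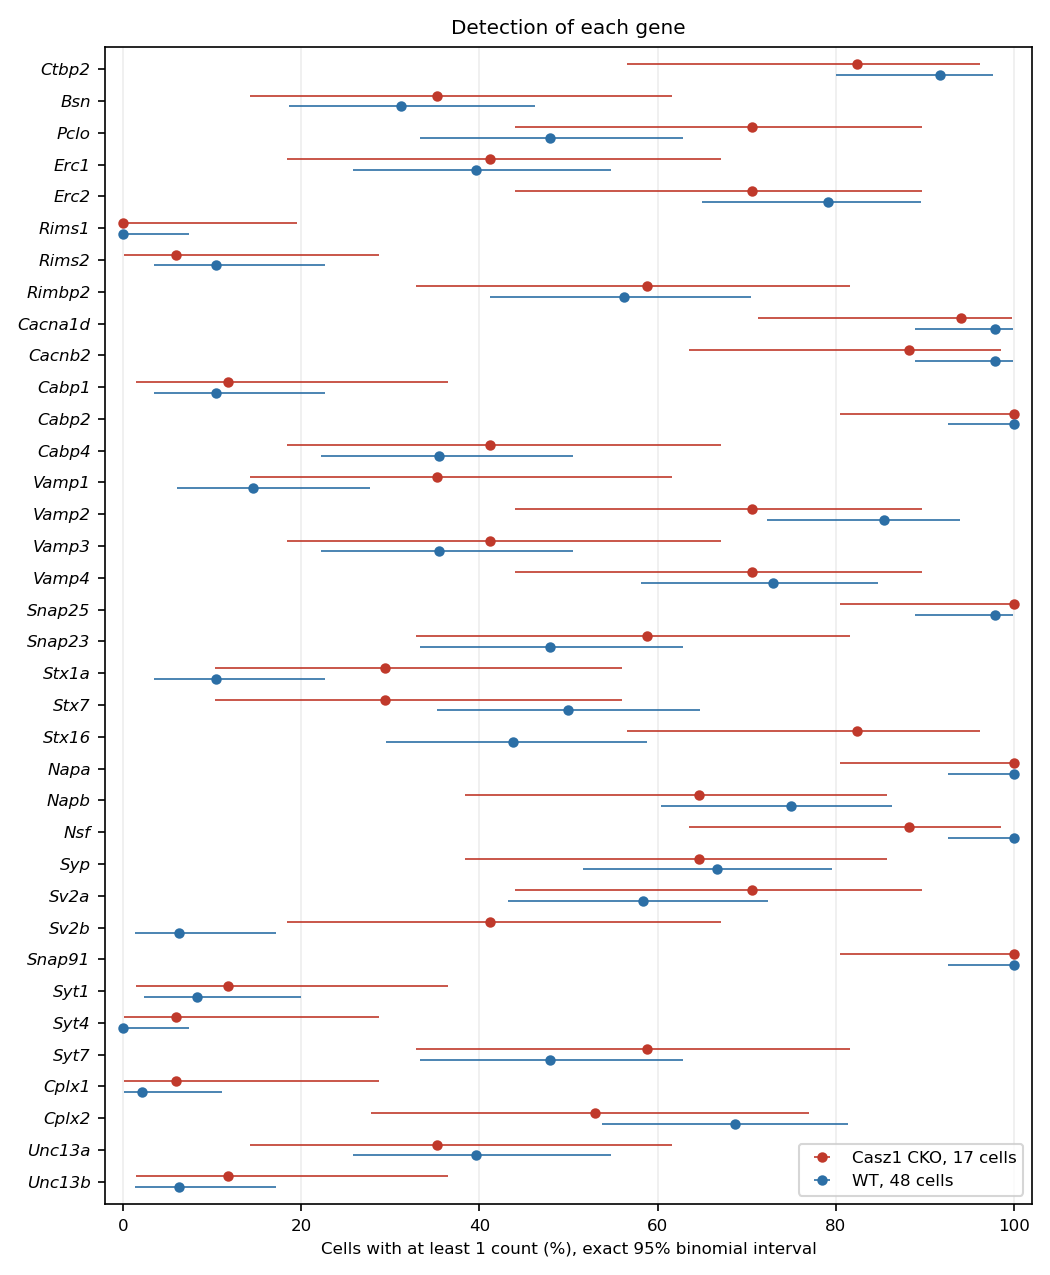
Share of cells with at least 1 count of each gene, with exact 95% binomial intervals, for 17 CKO cells (above) and 48 WT cells (below); the intervals cover counting error only and ignore animals. Rims1 stands at 0% in both groups, Cabp2, Napa and Snap91 at 100% in both, and the widest gap between the points is for Stx16 and Sv2b, higher in CKO cells.

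Over all cells the 4 measured genes of the calcium channel and its calcium-binding regulators had log2 ratios between -0.14 and 0.25. Cacna1d, encoding the pore of the Cav1.3 channel, ran from 0 to 783 CPM with a median of 250.3 in CKO cells and from 0 to 733 CPM with a median of 199.5 in WT cells. It was found in 16 of 17 and 47 of 48 cells. The summed levels were 256 CPM in CKO cells and 215 CPM in WT cells (log2 ratio 0.25), and the ratio was -1.20 against WT cells 46 to 48, which stood at 586 CPM. Cacnb2, the auxiliary beta subunit that hair cells use, stood at 62.0 CPM in CKO cells and 60.5 CPM in WT cells, although the medians per cell were 3.00 and 11.8 CPM. Against WT cells 46 to 48, which held 2.12 CPM, the ratio of Cacnb2 was 4.87, and among Xist-pattern cells -0.46.

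Cabp2 (chromosome 19, 4081578 to 4087340) was the most even of these genes in WT cells. It ran from 191 to 2435 CPM with a median of 673 in CKO cells and from 116 to 1657 CPM with a median of 692 in WT cells. Summed, Cabp2 stood at 839 CPM in CKO cells and 754 CPM in WT cells (log2 ratio 0.15), and a CKO cell was higher in 49.6% of pairs. The coefficient of variation between cells was 0.733 in CKO cells and 0.475 in WT cells. The related Cabp4, a regulator of photoreceptor Cav1 channels, was found in 7 of 17 CKO and 17 of 48 WT cells, at 17.6 and 19.3 CPM. Cabp1 had 2 counts in CKO cells and 148 in WT cells, of which 95.3% lay in 1 cell. Of the 3 CaBP genes, Cabp2 thus supplied 99.2% of transcripts per kilobase in CKO cells and 99.02% in WT cells.

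Among vesicle SNARE genes, 3 of 4 were measured, which here means at least 5 CPM in the higher group, and over all cells the 3 were lower in CKO cells by less than 2-fold. Vamp2, the synaptobrevin of neuronal vesicles, ran from 0 to 211 CPM with a median of 31.9 in CKO cells and from 0 to 297 CPM with a median of 59.1 in WT cells. The summed levels were 52.9 CPM in CKO cells and 75.6 CPM in WT cells (log2 ratio -0.51). The ratio of Vamp2 was 0.67 against WT cells 46 to 48. Vamp3, or cellubrevin, a vesicle SNARE of most cell types, stood at 14.5 CPM in CKO cells and 21.04 CPM in WT cells. Its log2 ratio of -0.54 was -1.20 without CKO cell 10 and 0.39 against WT cells 1 to 11. Vamp4, a SNARE of the trans-Golgi network, stood at 48.8 CPM in CKO cells and 54.8 CPM in WT cells. Vamp1 stood at 0.510 CPM in CKO cells and 2.70 CPM in WT cells. Per kilobase, Vamp2 made up 46.8% of the 4 genes in CKO cells and 50.4% in WT cells, with Vamp4 at 36.1% and 30.5%.

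Target membrane SNARE genes were led by Snap25 in both groups. Snap25, a partner of synaptobrevin in the fusion complex, ran from 0.224 to 452 CPM with a median of 120.1 in CKO cells and from 0 to 746 CPM with a median of 148 in WT cells. It was found in 17 of 17 and 47 of 48 cells, and the summed levels were 171 CPM in CKO cells and 186 CPM in WT cells (log2 ratio -0.12). Snap23, the paralogue of non-neuronal cells, stood at 33.2 CPM in CKO cells and 18.4 CPM in WT cells (log2 ratio 0.85). Snap25 made up 76.5% of the pair per kilobase in CKO cells and 86.5% in WT cells.

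Stx1a, the plasma membrane syntaxin of neuronal release, was rare, with a count in 5 of 17 CKO cells and 5 of 48 WT cells. The highest cell held 108 CPM in CKO cells and 128 CPM in WT cells. Summed, Stx1a stood at 16.8 CPM in CKO cells and 6.97 CPM in WT cells, a log2 ratio of 1.26 that was 0.46 without CKO cell 1, 1.98 without WT cell 37 and -1.12 against WT cells 46 to 48. The endosomal syntaxin gene Stx7 stood at 26.8 CPM in CKO cells and 44.1 CPM in WT cells, with a count in 5 of 17 and 24 of 48 cells. Stx16, a syntaxin of the trans-Golgi network, was found in 14 of 17 CKO cells and in 21 of 48 WT cells. Its median per cell was 18.2 CPM in CKO cells and 0 in WT cells, a CKO cell was higher in 68.3% of pairs, and the summed levels were 26.6 and 19.7 CPM (log2 ratio 0.43).

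Of the genes that recycle SNARE complexes, Napa and Nsf were abundant and Napb was sparser. Napa ran from 8.71 to 858 CPM with a median of 405 in CKO cells and from 61.9 to 933 CPM with a median of 363 in WT cells. The summed levels were 392.4 CPM in CKO cells and 403 CPM in WT cells (log2 ratio -0.039). Napb, the neuronal beta-SNAP, was found in 11 of 17 CKO and 36 of 48 WT cells, at 37.0 and 44.9 CPM, with medians per cell of 0.326 and 7.40 CPM. Its log2 ratio of -0.28 was 0.54 against WT cells 1 to 11 and -1.30 against WT cells 46 to 48. Napb supplied 4.82% of the pair per kilobase in CKO cells and 5.64% in WT cells. Nsf, the ATPase that takes SNARE complexes apart, was found in 15 of 17 CKO cells and 48 of 48 WT cells, at 191 and 182 CPM, and its median per cell was 120.2 CPM in CKO cells and 169 CPM in WT cells. Snap91 ran from 52.4 to 768 CPM with a median of 499 in CKO cells and from 131 to 964 CPM with a median of 481 in WT cells. Its log2 ratio was -0.052, with values of -0.055, -0.039 and -0.16 against the 3 runs of WT cells.

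Among vesicle membrane genes, Sv2b stood apart. Syp, encoding synaptophysin, was found in 11 of 17 CKO and 32 of 48 WT cells, at summed levels of 31.5 and 36.2 CPM. Sv2a, a glycoprotein of synaptic vesicles, was found in 12 of 17 CKO and 28 of 48 WT cells, at 23.7 and 29.4 CPM, a log2 ratio of -0.31 that was -1.30 without CKO cell 2, which held 52.4% of the CKO counts. Sv2b, its paralogue (chromosome 7, 75114894 to 75309262, minus strand), was found in 7 of 17 CKO cells (41.2%, exact interval 18.4% to 67.1%) and in 3 of 48 WT cells (6.25%, 1.31% to 17.2%). As for every share of cells, these intervals cover counting error in the cells sampled and not variation between animals, so they are no test of the genotypes. The highest cell held 108 CPM in CKO cells and 43.7 CPM in WT cells, and both medians were 0.

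The summed level of Sv2b was 17.6 CPM (17.1 to 18.2) in CKO cells and 1.22 CPM (1.13 to 1.31) in WT cells, a log2 ratio of 3.86 (3.74 to 3.98), and CKO was higher in 67.9% of pairings. With the Xist pattern alone, Sv2b stood at 20.003 CPM in CKO cells and 5.40 CPM in WT cells (log2 ratio 1.89). WT cells 1 to 11 held 4.28 CPM (log2 ratio 2.04). WT cells 12 to 45 held 0.0028 CPM, from 1 of 34 cells. WT cells 46 to 48 had no count, so the sign against them could only be positive. The ratio was 3.20 without CKO cell 6 and 7.68 without WT cell 3, which held 93.1% of the WT counts. Sv2b supplied 29.2% of the SV2 pair per kilobase in CKO cells and 2.24% in WT cells. Its exons overlap 1500012K07Rik on the opposite strand, and their reads could not be told apart because the strand setting is not given.

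Of the 3 synaptotagmin members, of a family that holds the calcium sensors of neuronal release, Syt1 and Syt4 were nearly absent. Syt1 had 2 counts over the CKO cells and 5 over the WT cells. Syt4 had 1 and 0 counts. Syt7, a sensor of slow, high-affinity release, was found in 10 of 17 CKO and 23 of 48 WT cells, at 7.99 and 9.21 CPM, a log2 ratio of -0.21 that was -1.34 without CKO cell 4, which held 56.5% of the CKO counts. The WT level was 56.0 CPM in cells 46 to 48 alone and 2.90 CPM in cells 1 to 11. Syt14, which is not among the 36 and is named here after its values were seen, stood far above them at 132 CPM in CKO cells and 189 CPM in WT cells, in 16 of 17 and 47 of 48 cells.

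Complexins clamp and promote fusion, and Munc13 proteins prime vesicles. Cplx1 had 1 count over the CKO cells and 2 over the WT cells. Cplx2 (chromosome 13, 54371349 to 54383917) ran from 0 to 63.0 CPM with a median of 1.61 in CKO cells and from 0 to 169 CPM with a median of 10.7 in WT cells. It was found in 9 of 17 CKO cells and 33 of 48 WT cells. The summed level of Cplx2 was 9.11 CPM (8.69 to 9.54) in CKO cells and 33.7 CPM (33.2 to 34.2) in WT cells, a log2 ratio of -1.89 (-1.96 to -1.82), and the WT cell was higher in 64.6% of pairs. With the Xist pattern alone the ratio was -2.30; it was -2.46 against WT cells 1 to 11, -1.72 against 12 to 45, and 8.37 against WT cells 46 to 48, which held 0.0275 CPM; without CKO cell 2 it was -2.53.

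The 2 Munc13 genes changed places in the summed counts, on few cells. Unc13a was the higher of the pair per kilobase in 5 of 7 CKO cells with a count of either. Those 5 cells held only 0.0653 to 3.58 CPM of Unc13a, while CKO cells 2 and 3 held 51.7 and 105 CPM of Unc13b. In WT cells Unc13a was the higher in 19 of 21. At least 10 counts of Unc13b were found in 2 CKO cells and 1 WT cell. Unc13a (chromosome 8, 71624417 to 71671757, minus strand) had 40 counts over the CKO cells, or 0.200 CPM, and 12.3 CPM in WT cells, a log2 ratio of -5.94 (-6.43 to -5.49). At least 10 counts were found in 1 of 17 CKO cells and 12 of 48 WT cells, while any count was found in 6 of 17 and 19 of 48. The ratio of Unc13a was -7.88 without CKO cell 12 and -5.26 without WT cell 23, and WT cells 46 to 48 had no count. Unc13b (chromosome 4, 43058953 to 43264871) stood at 9.64 CPM in CKO cells from 2 cells and at 0.962 CPM in WT cells from 3 cells, a log2 ratio of 3.33 that was 1.72 without CKO cell 3 and 11.34 without WT cell 25. Both groups were at a median of 0 for both genes, and exons of Unc13a overlap Colgalt1 on the opposite strand.

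**Figure D3:**
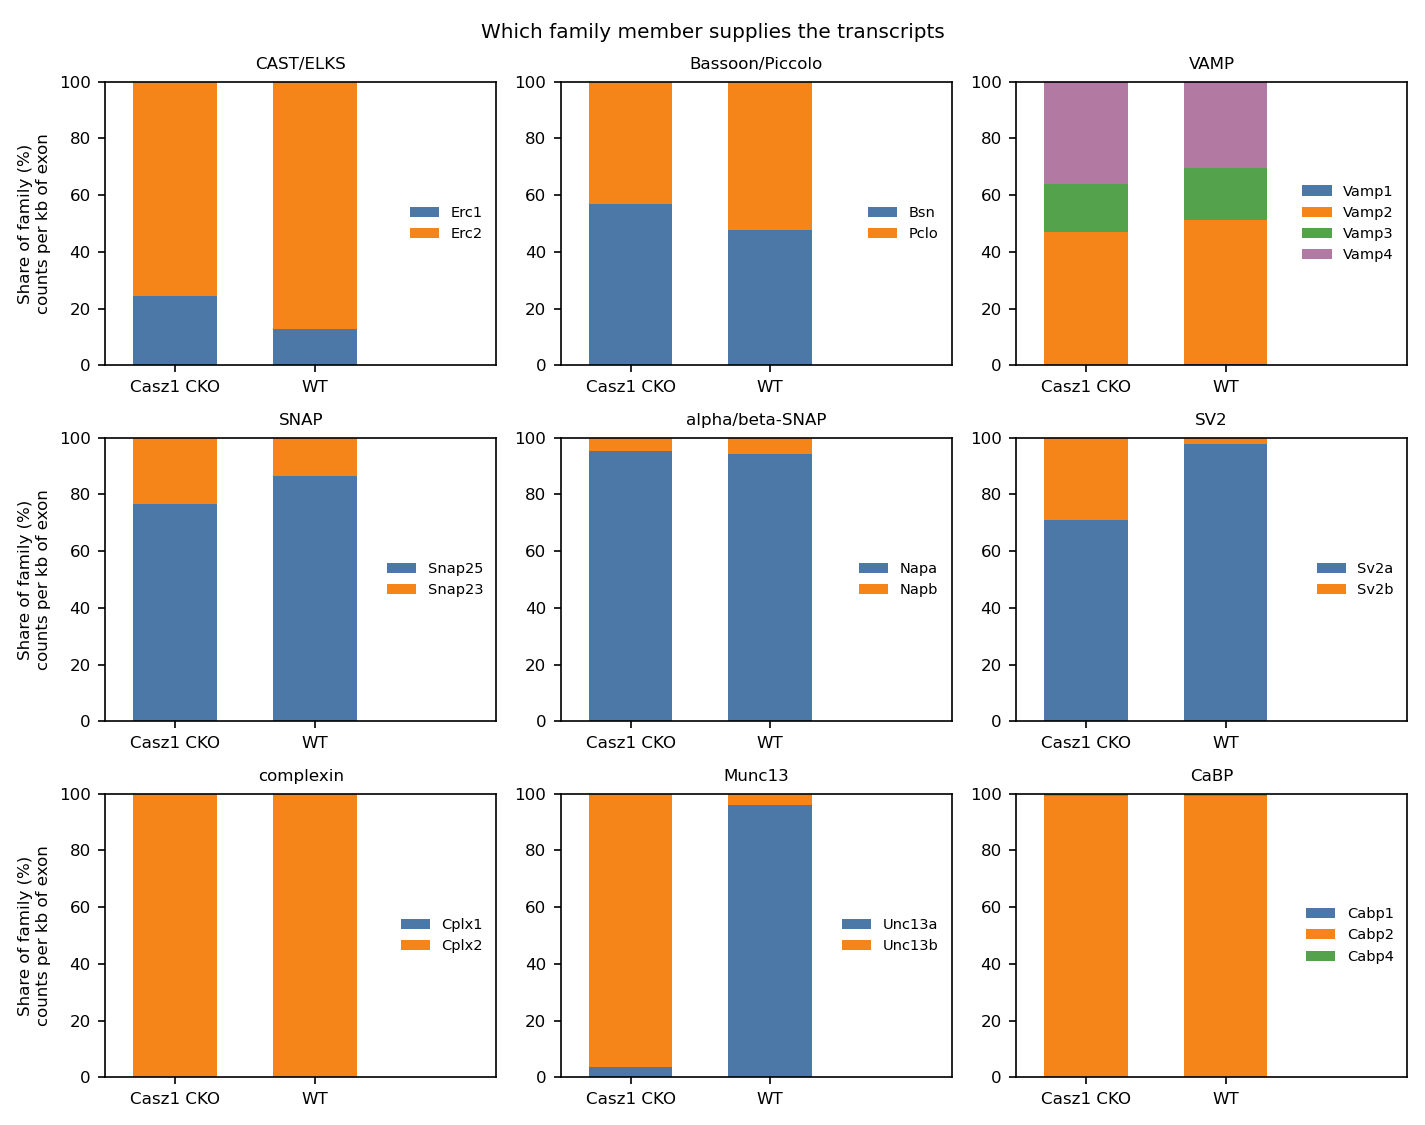
Share of each gene in its family, from summed counts per kilobase of merged exon, with CKO cells left of WT cells. Cabp2, Napa and Cplx2 supply over 94% of their families in both groups, while the Munc13 panel shows 96.4% Unc13b in CKO cells and 95.8% Unc13a in WT cells, on counts from 7 and 21 cells. Cell by cell, Unc13a is the higher of the pair in 5 of these 7 CKO cells and 19 of these 21 WT cells. Those 5 CKO cells hold only 0.0653 to 3.58 CPM of Unc13a. At least 10 counts were found in 1 CKO cell for Unc13a and in 2 for Unc13b.

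Most members differed by less than 2-fold between the genotypes. Of the 30 members measured at 5 CPM or more, 13 were higher and 17 lower in CKO cells (43.3% higher, against 50.4% of the 10842 genes measured), with a median log2 ratio of -0.078 beside 0.0092 for all measured genes. The 4 members at least 2-fold higher were Rims2, Stx1a, Sv2b and Unc13b, which is 13.3%, against 15.1% of measured genes. The 2 members at least 2-fold lower were Cplx2 and Unc13a, which is 6.67%, against 14.5%. None of the 30 was both 2-fold apart and in that direction in at least 75% of pairs, a rule met by 0.563% of measured genes as higher and 0.535% as lower. The members' shares stand beside those of all genes as a description. All 4 of the higher members and Unc13a had a median of 0 in both groups.

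**Figure D4:**
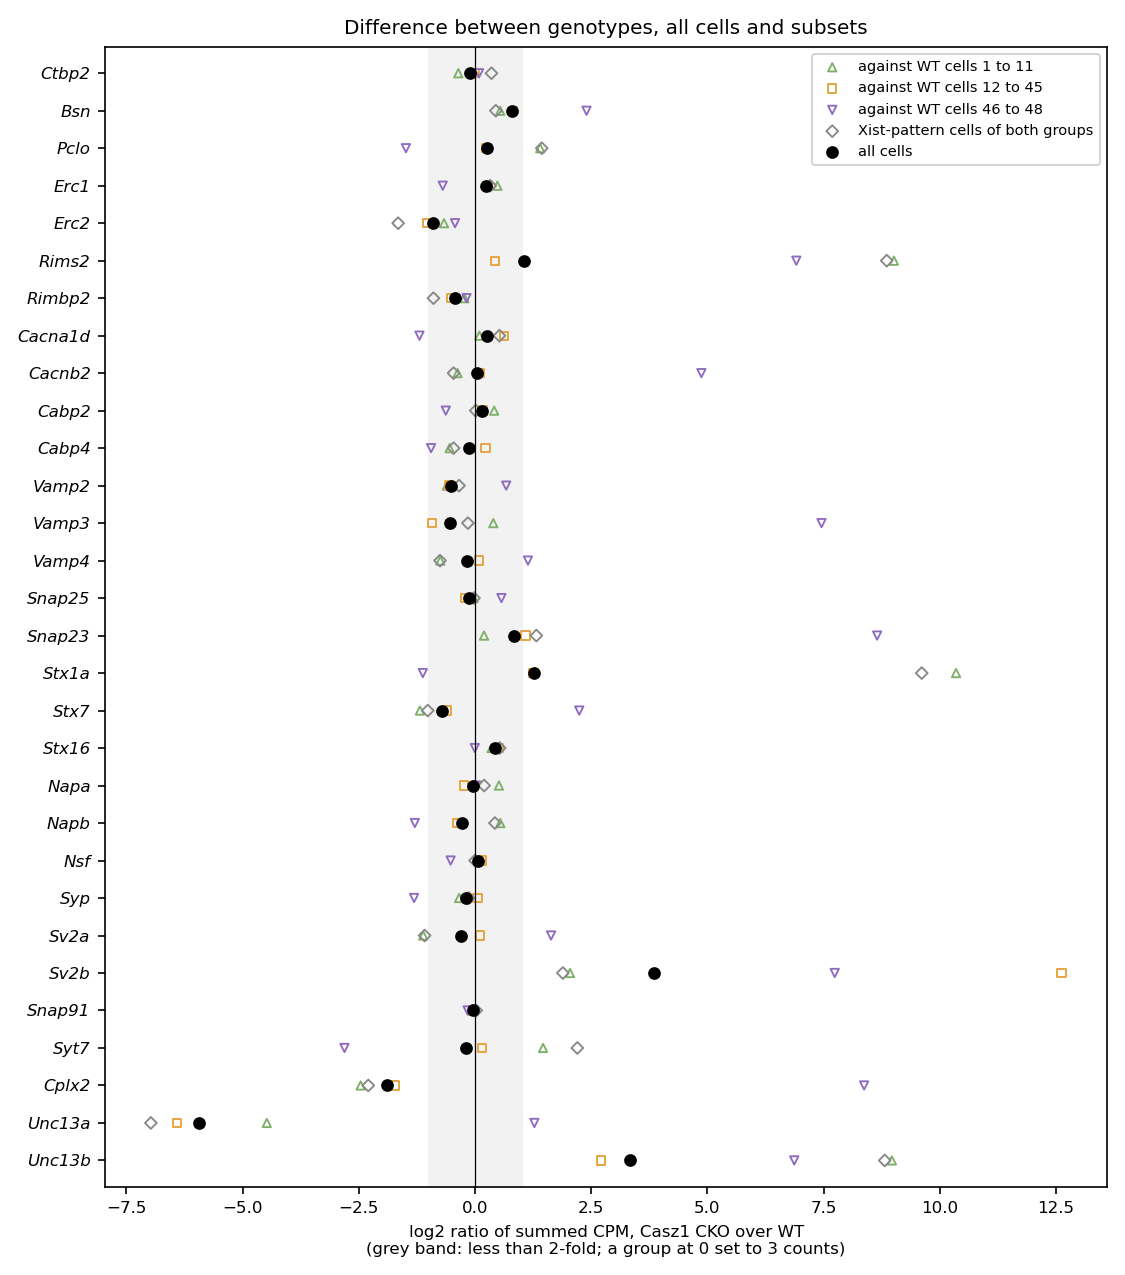
Log2 ratio of summed CPM, CKO over WT, for the 30 measured members over all cells (filled) and in 4 subsets (open), with the range of less than 2-fold in grey. Snap91 lies between -0.16 and 0.026 in the subsets, and Napa, Nsf and Snap25 stay inside 2-fold. The open points far to the right belong to genes with few or no counts in WT cells of 1 or more subsets. Those far to the left belong to Unc13a, which has few counts in CKO cells.

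Variation between cells of a group was large, and whether members varied together was not tested. Over the WT cells the coefficient of variation of CPM was lowest for Snap91 (0.416), Cabp2 (0.475) and Napa (0.615), and the CKO cells gave 0.456, 0.733 and 0.572. Sparse genes lay far higher, as Rims2 with 4.12 in CKO cells and 4.43 in WT cells. Among the 120 pairs of the 16 members found in at least 50% of the cells of both groups, Spearman correlations of CPM ran from -0.60 to 0.56 over 17 CKO cells (median 0.042) and from -0.33 to 0.29 over 48 WT cells (median -0.0037). The points share library totals, and no correlation in this range is a finding.

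Genes with related functions also lay mostly within 2-fold. Of 82 other exocytosis genes, 81 were in the table and 43 measured, of which 4 were at least 2-fold higher and 3 at least 2-fold lower in CKO cells (9.30% and 6.98%, against 15.1% and 14.5% of all measured genes; median log2 ratio -0.0011). Otof, encoding the calcium sensor of hair cell release, stood at 81.6 CPM in CKO cells and 170.1 CPM in WT cells and was found in 16 of 17 and 42 of 48 cells; the median per cell was 45.6 and 71.9 CPM, and the WT level was 11.1 CPM in cells 46 to 48. Slc17a8, the glutamate transporter of inner hair cell vesicles, stood at 17.1 and 12.1 CPM, and Rab3a, a vesicle GTPase, at 328 CPM in CKO cells and 301 CPM in WT cells. Cacna2d2, an auxiliary calcium channel subunit, stood below the minimum at 0.806 CPM in CKO cells and 1.87 CPM in WT cells.

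Among the genes with the largest ratios in this list were Syn3, a synapsin (0.225 CPM in CKO cells and 6.91 CPM in WT cells), Syngr2 (21.8 and 7.16 CPM) and Syngr1 (9.05 and 27.4 CPM), both synaptogyrins. Ppfia4, a liprin-alpha, stood at 76.4 CPM in CKO cells and 33.04 CPM in WT cells and Rab27b at 22.8 and 10.7 CPM. Each of these ratios moved by over 1.5 times when a single cell was left out. Without CKO cell 14 the log2 ratio of Ppfia4 was 0.61, not 1.21, that of Rab27b -1.03, not 1.09, and 2 genes of this list were at least 2-fold higher; without CKO cell 17, 5 were at least 2-fold lower. The ratio of Syngr2 was 0.73 without CKO cell 11 and 2.21 without WT cell 30, that of Syngr1 -2.46 without CKO cell 1 and that of Syn3 -7.34 without CKO cell 7. Exons of Syn3 overlap Timp3 on the opposite strand.

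All 30 genes of vesicle endocytosis were measured, with 1 at least 2-fold higher and 2 at least 2-fold lower in CKO cells (3.33% and 6.67%, against 15.1% and 14.5% of all measured genes; median log2 ratio -0.16). The higher gene was Bin1, encoding amphiphysin 2, which bends membranes. Bin1 (chromosome 18, 32377230 to 32435737) ran from 0 to 1045 CPM with a median of 382 in CKO cells and from 0 to 750.1 CPM with a median of 46.8 in WT cells. It stood at 398 CPM in CKO cells and 127 CPM in WT cells summed, a log2 ratio of 1.64 (1.63 to 1.66), and the CKO cell was higher in 75.8% of pairs. With the Xist pattern alone the ratio was 1.15, and the 3 runs of WT cells gave 1.45, 1.75 and 1.59. Exons of Bin1 overlap A830052D11Rik on the opposite strand.

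The other endocytosis genes with the largest ratios were lower in CKO cells. Dnajc6, encoding auxilin, which uncoats clathrin vesicles, ran from 0 to 294 CPM with a median of 79.8 in CKO cells and from 0.875 to 441 CPM with a median of 159.8 in WT cells. Its log2 ratio was -0.98 (-1.01 to -0.96), WT being higher in 76.2% of pairings, and lay between -0.87 and -1.35 in the subsets. Amph, encoding amphiphysin 1, stood at 77.6 CPM in CKO cells and 150.5 CPM in WT cells, and Ap2s1, a subunit of the AP-2 adaptor, at 48.8 and 91.0 CPM. Pacsin2 was found in 1 of 17 CKO cells and 20 of 48 WT cells, at 1.40 and 20.2 CPM. Sh3gl2, encoding endophilin A1, stood at 12.0 CPM in CKO cells and 29.7 CPM in WT cells, a log2 ratio of -1.31 that was -1.92 without CKO cell 4 and -2.55 without CKO cell 11. The CKO counts of Pacsin2 all came from cell 1. Because several ratios lie just inside 2-fold, leaving out CKO cell 1, 2, 5, 8, 10 or 11 gave 4 or 5 genes at least 2-fold lower, and leaving out CKO cell 14 or WT cell 29, 30, 39 or 45 gave 2 at least 2-fold higher.

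**Figure D5:**
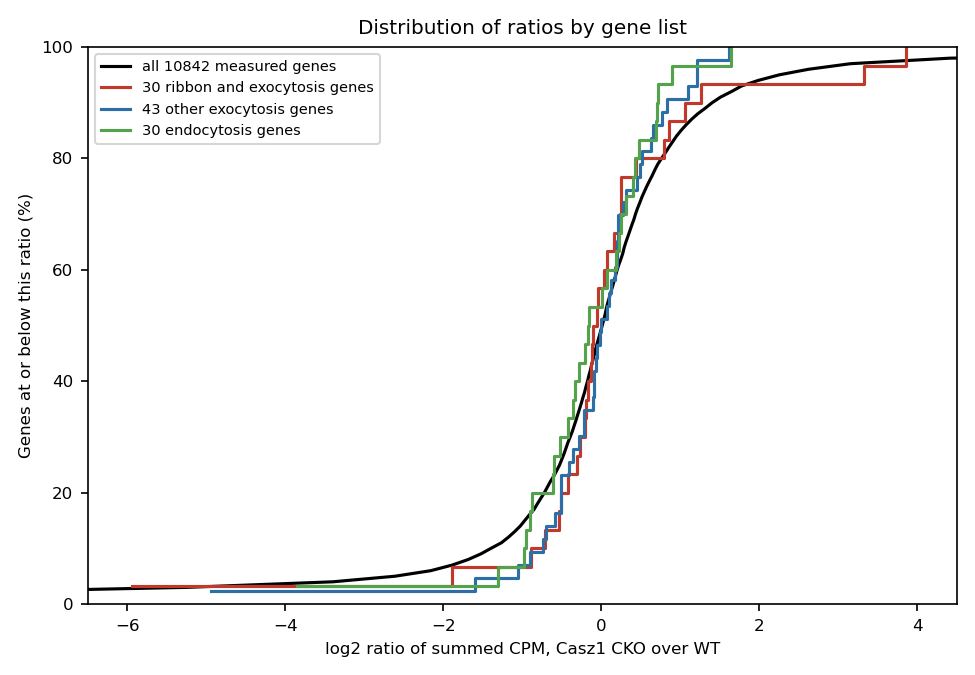
Cumulative share of genes by log2 ratio of summed CPM, CKO over WT, for all 10842 measured genes and the 3 gene lists. The curve of all genes has its median at 0.0092 and that of the members at -0.078, with 4 members above and 2 below 2-fold.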

How the data were processed

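The deposited table holds whole-number counts per gene and cell, which the authors made; per the submitters' processing notes HISAT2 2.2.1, StringTie 2.2.1 and featureCounts 2.0.1 were used on mm10. The sources used here do not give their roles, the strand setting or the gene annotation. Per the labels' protocols, cDNA came from a Smart-Seq HT kit, full-length and without molecular identifiers. No cell was removed, no doublet caller was run on hand-picked cells, and none of the 2080 pairs of columns was identical.

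From these counts summed and per-cell CPM, log2 ratios (CKO over WT), exact conditional, Poisson and binomial 95% intervals, and pair shares were computed with Python 3.11.15 and scipy 1.17.1, after checks on simulated data. A group without a count was set to 3 counts. Gene positions, exon overlaps and merged exon lengths came from GENCODE M21 (GRCm38); promoter sequences are from RefSeq. Overlaps are not limited to the genes for which the Results give them. Exons of Ctbp2 overlap Fgfr2 on the same strand, and those of Bsn overlap another annotated gene on the same strand. On the opposite strand Cacna1d overlaps Chdh and Cabp4 overlaps Gpr152. Exons of Erc2, Pclo, Erc1, Rimbp2, Cacnb2, Syp and Syt7 also overlap annotated genes on the opposite strand. A cell had the Xist pattern when Xist reached 10 counts and 4 Y-linked genes together did not.

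The members, gene lists, subsets and runs were chosen with earlier results of these data known. Named genes are all members and, of each other list, the 6 measured genes with the largest absolute ratio, plus 6 set ones; some of these are not reported here. Alternatives used edgeR 4.0.16 TMM and DESeq2 1.42.0 size factors (R 4.3.3) among others.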

Additional observations from a re-analysis of the deposited data

How the results depend on the processing

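No paired analysis was possible because a cell's number pairs it with nothing and no test was made. Of 286 values of the 30 measured members under the alternatives, 50 differed in sign from the values over all cells. This happened at least once for 25 members and never for Bsn, Erc2, Snap23, Sv2b and Unc13b. Unc13b had no count in WT cells with the Xist pattern, WT cells 1 to 11 or WT cells 46 to 48. Sv2b had none in WT cells 46 to 48. The 3 counts set in those groups fixed these signs. For Bsn, Snap23, Sv2b and Unc13b no ratio of medians could be formed. The counts of members at least 2-fold higher and lower (4 and 2) were 1 and 4 for medians of per-cell CPM, 2 and 5 without the highest cell of each group (median log2 ratio -0.25), 7 and 5 with the Xist pattern alone, 11 and 6 against WT cells 46 to 48, and 0 and 1 at a minimum of 20 CPM; without a minimum 4 were lower, and at 1.5-fold 6 were higher and 4 lower. Leaving out 1 cell gave 3 to 6 and 2 to 3, with medians of -0.11 to -0.0319. For the other exocytosis genes (4 and 3) the counts were 2 and 8 without the highest cells, 7 and 6 with the Xist pattern alone, 17 and 5 against WT cells 46 to 48 (median 0.44), 9 and 8 at 1 CPM, 12 and 13 without a minimum and 8 and 7 at 1.5-fold. Means of per-cell CPM gave 2 higher, and WT cells 12 to 45 alone 5 lower. Leaving out 1 cell gave 2 to 5 and 2 to 5, medians -0.039 to 0.079. For the endocytosis genes (1 and 2) they were 5 and 7 for medians per cell, 3 and 7 with the Xist pattern alone, 3 and 4, 2 and 4, and 5 and 7 against the runs in order, and 5 and 8 at 1.5-fold; means gave 2 higher, and dropping the highest cells 5 lower. Leaving out 1 cell gave 1 to 2 and 2 to 5, medians -0.21 to -0.078. Without the highest cell of each group the log2 ratio of Rims2 was -7.07 and that of Rab27b -0.66; Rims2 was -8.22 without CKO cell 8 and 2.21 without WT cell 44, and Rab27b -1.03 without CKO cell 14. With the Xist pattern alone Rab27b was -1.44. Stx1a, set against WT cells 46 to 48, was -1.12, Cplx2 8.37, Unc13a 1.28, Sh3gl2 7.77 and Otof 2.88. Values against a group without a count depend on the 3 counts set there. TMM and median-of-ratios factors moved the members' median to -0.12 and -0.036 and left the counts of members at 4 and 2. The cause of these differences was not tested. Depth limits mainly the sparse genes: for Rims1 even 3 counts would be 0.0150 CPM in CKO cells.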

Other observations

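Cells without a count of 1 gene of a family could have a count of another, and a cell without a count may still express the gene. Of the 4 VAMP genes at least 1 had a count in 16 of 17 CKO cells and 46 of 48 WT cells. In 8 of the CKO cells Vamp4 was the highest of the 4 per kilobase and in 7 Vamp2, against 14 and 25 of the WT cells. A count of Sv2a or Sv2b was found in 15 of 17 CKO cells and 29 of 48 WT cells, and Sv2b was the higher of the pair in 5 and 2 of them. A count of Bsn or Pclo was found in 12 of 17 CKO cells and 31 of 48 WT cells, and of Erc1 or Erc2 in 13 and 43. These shares are descriptions of the cells sampled, with no test.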
